A study of Ovis aries with 12 samples.

Results

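A set of 5 genes of stress-responsive and glucocorticoid-induced transcription was followed across the biceps femoris muscle of sheep fetuses: MYC, FOS, CEBPB, NFKBIA and TXNIP. They were found on the array by gene name or by the sheep reference transcript named for the probe. MYC carries the older array name C-MYC, and the probes of TXNIP carry its older name VDUP1, which was matched by hand. The 5 genes have 10 probes of the 15008 on the array: 4 for FOS, 2 each for MYC and TXNIP, and 1 each for CEBPB and NFKBIA. All 10 probes were well above background on enough arrays to be tested, with 10730 probes tested in all.

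Ewes carrying 1 fetus received either vehicle (control) or cortisol at 1 mg per kg per day, given as Solu-Cortef, an injectable form of hydrocortisone. The infusion ran from about day 115 of gestation to necropsy at 139 to 144 days, as soon as possible after labour began, so both groups were collected near term and after labour onset. The labels speak of 7 ewes in each arm, and 6 control and 6 cortisol arrays were analysed, each with total RNA of a fetus. The steroid went to the ewe, and its level in the fetus is not among these data.

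Each array was a 1-colour Agilent sheep microarray, on which the brightness of a 60-base probe follows the amount of its messenger RNA. Values below are log2 processed signal minus the 75th percentile of the same array, so a value of 1 is a signal of 2 times that percentile; levels of different probes are not comparable. The 75th percentile lay between 187 and 447 intensity units, and 66.3% to 76.0% of probes were well above background. The labels' treatment text names left ventricular free wall with 5 samples per group, while titles and tissue fields name biceps femoris for the 6 arrays per group. Of the myogenic factors, MYOD1 and MYOG gave signal well above background on each of the 12 arrays, and MYF5 on 5 control and 3 cortisol arrays. Of 8 measured skeletal muscle markers, 3 had a higher and 5 a lower mean with cortisol. Of the latter, 2, MB and MYF5 (-0.60), had an unadjusted p under 0.05 by limma. Among all tested probes, 46% had a higher and 54% a lower mean, and 4.68% were lower at that p. None of the 8 heart muscle markers looked for was found by name on the array.

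Cortisol acts through the glucocorticoid receptor, a transcription factor that moves to the nucleus once bound and switches genes on or off at its response elements. CEBPB, NFKBIA and TXNIP are known targets that glucocorticoids raise in several cell types, while FOS and MYC are early-response genes that many growth and stress signals switch on within a short time. In skeletal muscle, excess glucocorticoid is known to favour protein breakdown and to lower glucose uptake, and C/EBP-beta and TXNIP have been placed in those responses.

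The probe sequences below, taken from the scanner files, show what was measured for CEBPB and NFKBIA, each of which rests on 1 probe. They also show the dimmer FOS probes, which partly repeat each other. Capitals mark the single base at an end that the overlapping FOS pair does not share.
CEBPB A_70_P002791: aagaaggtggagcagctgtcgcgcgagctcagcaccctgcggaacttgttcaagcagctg
NFKBIA A_70_P068111: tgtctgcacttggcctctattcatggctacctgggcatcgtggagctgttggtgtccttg
FOS A_70_P016317: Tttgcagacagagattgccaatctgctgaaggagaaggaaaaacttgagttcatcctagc
FOS A_70_P016316: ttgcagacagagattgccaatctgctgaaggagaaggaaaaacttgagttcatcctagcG
FOS A_70_P001561: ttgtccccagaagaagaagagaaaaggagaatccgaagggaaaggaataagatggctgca
The overlapping FOS probes have 59 of 60 bases in common, so their agreement is that of nearly 1 probe in 2 spots. FOS probe A_70_P001561 lies elsewhere in the same reference transcript. The 2 MYC probes overlap by 20 bases.

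All 5 genes had a higher mean in the cortisol group, by 0.17 to 1.12 on the log2 scale for the brightest probe of each gene, and none passed the test (limma, Benjamini-Hochberg over 10730 probes, smallest adjusted p of any probe 0.692). The share of all tested probes that passed was 0%. At an unadjusted p under 0.05, MYC and CEBPB counted among the 5 genes, against 6.82% of all tested probes in either direction, 2.14% in the higher and 4.68% in the lower. The median difference of the 5 genes was 0.89, and that of all tested probes was -0.02, with 46% of probes higher and 54% lower in the cortisol group. By difference, FOS stood at position 48 of 10730, MYC at 72, CEBPB at 109, TXNIP at 182 and NFKBIA at 2393. These 5 genes were chosen with earlier results of these data known, so their median and positions describe them and are not a test. The same choice limits what the unadjusted and permutation p-values of these genes and of their pairs can show. In no case did all 6 cortisol arrays lie above every control, which held for 0.0932% of tested probes.

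**Figure D1:**
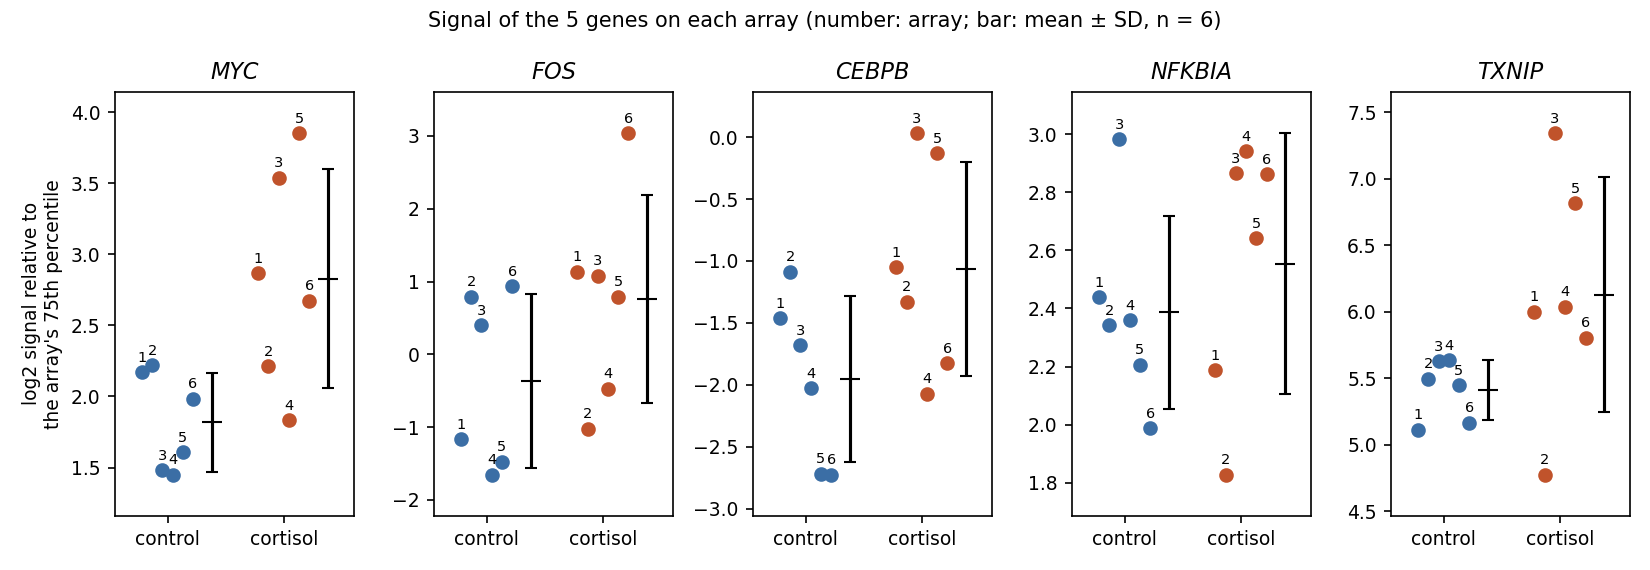
Log2 signal relative to the array's 75th percentile (y axis, own scale per gene) for the brightest probe of each gene on 6 control and 6 cortisol arrays; numbers name the array, and the bars are mean ± SD (n = 6). Cortisol arrays 3 and 5 are the highest for MYC, CEBPB and TXNIP, array 6 is the highest for FOS, and the groups overlap in every panel.

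MYC encodes a transcription factor that drives ribosome production and growth. Its brightest probe, A_70_P030412, ran from 1.45 to 2.22 with a median of 1.80 in controls, and from 1.83 to 3.85 with a median of 2.77 in the cortisol group. Cortisol arrays 1, 3, 5 and 6 lay above every control, and arrays 2 and 4 lay within the control range. At least 4 cortisol arrays above every control was seen for 3.91% of tested probes. The difference was 1.01 (95% interval 0.34 to 1.68, SE 0.31), a ratio of 2.02, with an unadjusted p of 0.00618 and an adjusted p of 0.692 by limma. An exact permutation test over all ways of dividing the 12 arrays gave p = 0.0173, two-sided. The other MYC probe, A_70_P030411, was correlated with it at Pearson's r = 0.99 over the 12 arrays and gave a difference of 0.97 (95% interval 0.26 to 1.68). The spread was wider with cortisol, with an SD of 0.77 against 0.35 in controls.

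FOS encodes a subunit of AP-1, the dimeric factor that joins Fos and Jun proteins. Probe A_70_P026731, the brightest, ran from -1.65 to 0.93 with a median of -0.39 in controls and from -1.03 to 3.04 with a median of 0.93 in the cortisol group. Both groups were wide: controls 1, 4 and 5 lay at -1.17, -1.65 and -1.47, and controls 2, 3 and 6 at 0.79, 0.40 and 0.93. Cortisol arrays 1, 3 and 6 exceeded every control, and array 6 stood at 3.04, well above the next at 1.14. The difference of 1.12 (95% interval -0.30 to 2.54, SE 0.66) did not pass (limma adjusted p 0.765, exact permutation p = 0.173). Without cortisol array 6 it was 0.67, and without cortisol array 2 it was 1.48. Its interval was the widest of the 5 genes.

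The other 3 FOS probes gave differences of 0.73, 0.95 and 0.95, and were correlated with the brightest at r between 0.91 and 0.96. Each was well above background on 5 of 6 controls and all 6 cortisol arrays. The differences of these dim probes depended on the background correction and its offset. With normexp, which models background in place of the scanner's own subtraction, an offset of 50 was added to each intensity. An offset shrinks the differences of dim probes, and its part was not separated from that of the background model. The differences were then 0.09 for A_70_P001561, 0.26 for A_70_P016316 and 0.22 for A_70_P016317, against 0.94 for the brightest probe.

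CEBPB encodes C/EBP-beta, a leucine zipper factor of acute-phase, fat-cell and glucocorticoid responses. Its only probe ran from -2.73 to -1.09 with a median of -1.85 in controls and from -2.07 to 0.03 with a median of -1.19 in the cortisol group. Cortisol arrays 3 and 5, at 0.03 and -0.13, were the highest of all 12, array 1 at -1.05 lay just above the highest control, and the other 3 lay within the control range. The difference was 0.89 (95% interval 0.03 to 1.74, SE 0.40). Limma gave an unadjusted p of 0.0425 and an adjusted p of 0.720, and the exact permutation test gave p = 0.0844. With normexp the difference was 0.52.

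NFKBIA encodes I-kappa-B-alpha, which holds NF-kappaB in the cytoplasm and is itself made when NF-kappaB is active. Its probe ran from 1.99 to 2.98 with a median of 2.35 in controls and from 1.83 to 2.94 with a median of 2.75 in the cortisol group. No cortisol array exceeded every control, since control 3 was the highest of all 12, and cortisol array 2 was the lowest. The difference was 0.17 (95% interval -0.31 to 0.64, SE 0.22; limma adjusted p 0.894, exact permutation p = 0.470). The interval takes in no difference and also one of 0.64. Without control 6 the difference was 0.09, and without cortisol array 2 it was 0.31.

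TXNIP encodes the thioredoxin-interacting protein, which binds thioredoxin and restrains glucose uptake. Probe A_70_P001432 ran from 5.11 to 5.63 with a median of 5.47 in controls and from 4.78 to 7.34 with a median of 6.02 in the cortisol group. As many as 5 of 6 cortisol arrays lay above every control, and cortisol array 2 lay below every control. The difference was 0.72 (95% interval -0.01 to 1.44, SE 0.34; limma unadjusted p 0.0516, adjusted p 0.720, exact permutation p = 0.0823). The second probe, A_70_P001431, gave 0.74 with r = 0.98 to the first. The SD was 0.88 with cortisol and 0.23 in controls, a ratio of 3.92, where the median ratio over all tested probes was 1.34. Without cortisol array 3 the TXNIP difference was 0.47, and without cortisol array 2 it was 0.99.

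**Figure D2:**
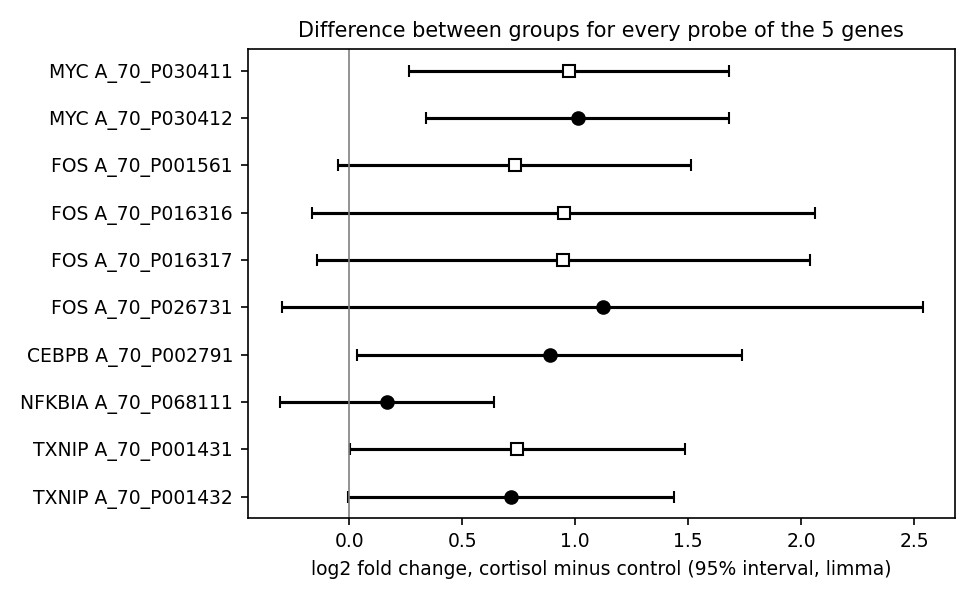
Log2 fold change, cortisol minus control (x axis), with the 95% interval from limma for each of the 10 probes; filled circles mark the brightest probe of a gene and open squares the others. All 10 differences are above 0, and the intervals of both MYC probes, the CEBPB probe and the dimmer TXNIP probe lie wholly above 0 before any adjustment for multiple tests.

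The arrays lay in 3 sets by slide and by row on it, with 2 arrays of either group in a set, and the differences were not alike across them. The set with arrays 1 and 2 of each group was on slide 1, and the other sets were on slide 2. What sets the first apart therefore cannot be told apart from its slide. In the set with arrays 1 and 2 of each group, the differences were 0.35 for MYC, 0.25 for FOS, 0.09 for CEBPB, -0.38 for NFKBIA and 0.08 for TXNIP. The set with arrays 3 and 4 gave 1.22, 0.93, 0.83, 0.23 and 1.06 in the same gene order. The set with arrays 5 and 6 gave 1.47, 2.19, 1.74, 0.65 and 1.00. Every gene thus had its lowest difference in the first set, and the sign of NFKBIA turned there. The difference between sets was not tested. With slide and row as a block, the pooled differences had to stay the same, since each set holds 2 arrays of either group. The limma adjusted p values were then 0.570 for MYC and 0.577 for TXNIP.

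**Figure D3:**
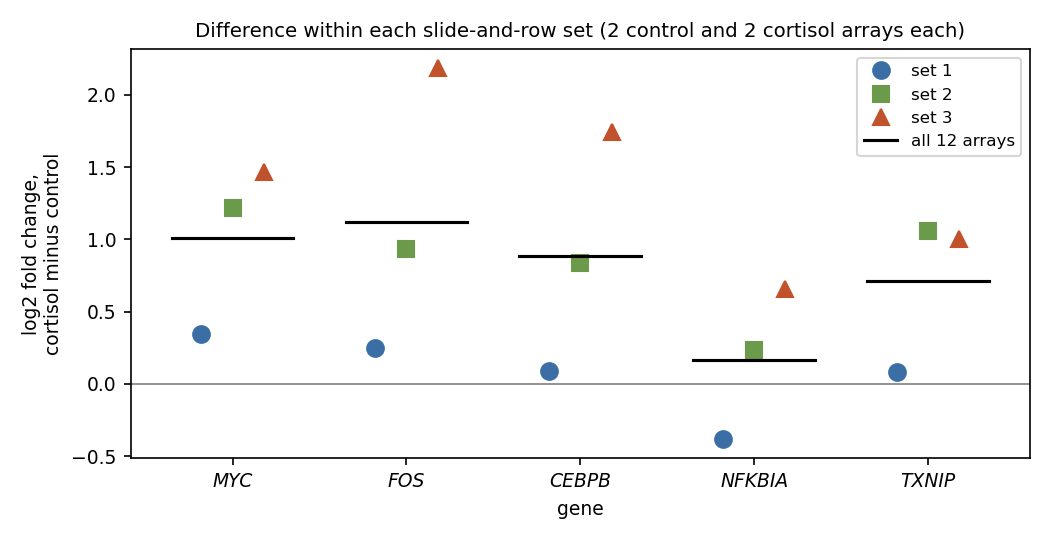
Log2 fold change, cortisol minus control (y axis), of each gene within each slide-and-row set of 2 control and 2 cortisol arrays (markers) and over all 12 arrays (lines). Set 1, with arrays 1 and 2 of each group, gives the lowest value for every gene, from -0.38 for NFKBIA to 0.35 for MYC.

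Whether the genes were high on the same arrays was examined array by array. Cortisol array 3 exceeded every control for 4 of the 5 genes, all but NFKBIA, and so did cortisol array 1. Cortisol arrays 5 and 6 exceeded every control for 3 genes each, array 4 for TXNIP alone, and array 2 for none. On cortisol arrays 3, 5 and 6 all 5 genes lay above their control means. Array 3 was 1.72 above the control mean for MYC, 1.98 for CEBPB and 1.93 for TXNIP, and array 5 was 2.03, 1.82 and 1.40 above. Array 6 differed from these: its FOS lay 3.40 above the control mean, while CEBPB lay 0.12 above and TXNIP 0.39 above. Cortisol array 2 was the lowest of all 12 arrays for NFKBIA and TXNIP, at 0.56 and 0.64 below their control means.

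**Figure D4:**
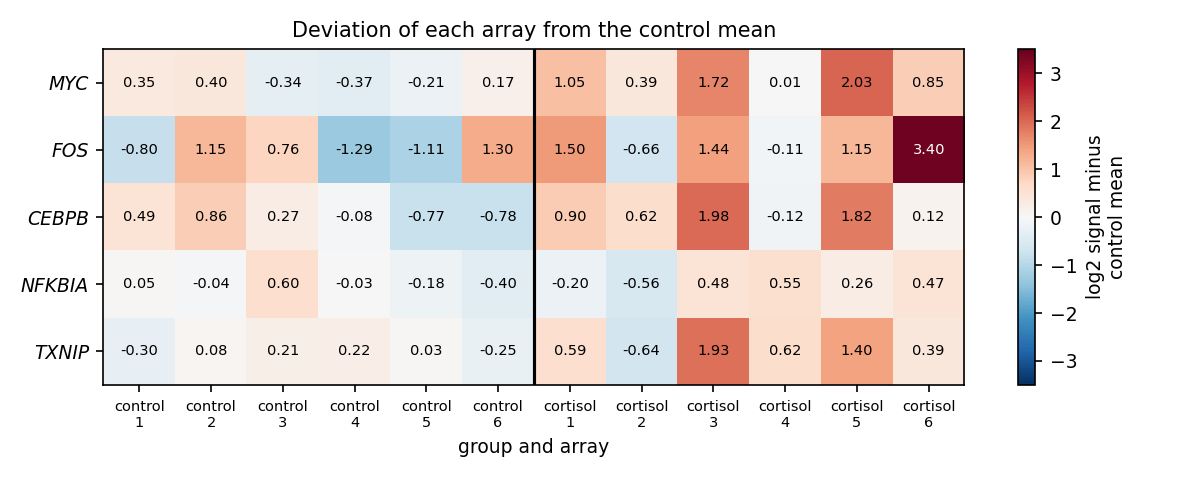
Log2 signal of the brightest probe of each gene minus that gene's control mean (colour and printed value) on the 12 arrays; the black line parts controls from cortisol arrays. MYC, CEBPB and TXNIP have their highest values on cortisol arrays 3 and 5, and FOS on cortisol array 6, where it is 3.40 above the control mean.

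Across all 12 arrays the 10 pairs of genes had Pearson's r between 0.18 and 0.83, all above 0, and 3 pairs passed a permutation test adjusted over the 10 pairs. These were MYC with CEBPB (r = 0.83, p = 0.00105, adjusted p = 0.0105), MYC with TXNIP (r = 0.72, p = 0.00903, adjusted p = 0.0451) and CEBPB with TXNIP (r = 0.68, p = 0.0139, adjusted p = 0.0465). Other probes also followed these genes this closely: of 10705 probes compared, 99.2% had a lower r with MYC than CEBPB had, 96.4% a lower r with MYC than TXNIP had, and 95.9% a lower r with CEBPB than TXNIP had. Spearman's rho was 0.78 for MYC with CEBPB (permutation p = 0.00495, adjusted p = 0.0495). It was 0.45 for MYC with TXNIP (permutation p = 0.149, adjusted p = 0.299) and 0.42 for CEBPB with TXNIP (permutation p = 0.180, adjusted p = 0.300). The relations rested in large part on cortisol arrays 3 and 5: without these, the arrays farthest from the median, r was 0.55 for MYC with CEBPB, 0.12 for MYC with TXNIP and 0.04 for CEBPB with TXNIP. Leaving out either of these arrays alone left 0 of the 10 pairs past the adjusted threshold.

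Part of any pooled r comes from the shared difference between groups, so r was also taken with group means removed. It was then 0.76 for MYC with CEBPB (permutation p = 0.0108, adjusted p = 0.108), 0.59 for MYC with TXNIP (adjusted p = 0.341) and 0.56 for CEBPB with TXNIP (adjusted p = 0.327), and no pair passed. With the means of group and slide-and-row set both removed, the same 3 pairs had r of 0.94, 0.90 and 0.84 and permutation adjusted p of 0.0025, 0.00655 and 0.0157. Those permutations shuffled arrays within a group but across sets, so these p-values can be too small. Within the 6 cortisol arrays alone, MYC with CEBPB had r = 0.91 (exact permutation p = 0.025), and within the 6 controls r = 0.42 (exact permutation p = 0.378). MYC with TXNIP had r = 0.75 among cortisol arrays (exact permutation p = 0.0819) and -0.70 among controls (exact permutation p = 0.167). The difference between groups in r was not tested.

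FOS did not pass with any of the other 4 genes. Its r was 0.55 with MYC (permutation p = 0.0674, adjusted p = 0.135; rho 0.72, permutation p = 0.0103, adjusted p = 0.0514), 0.40 with TXNIP (permutation p = 0.199), 0.36 with NFKBIA (permutation p = 0.248) and 0.31 with CEBPB (permutation p = 0.330). NFKBIA had its highest r with TXNIP, at 0.62 (permutation p = 0.0303, adjusted p = 0.0757). This pair passed with median scaling (adjusted p = 0.0468), with quantile normalization (0.0493) and without control 3 (0.0446). NFKBIA had r of 0.28 with CEBPB and 0.18 with MYC (permutation p = 0.379 and 0.572).

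**Figure D5:**
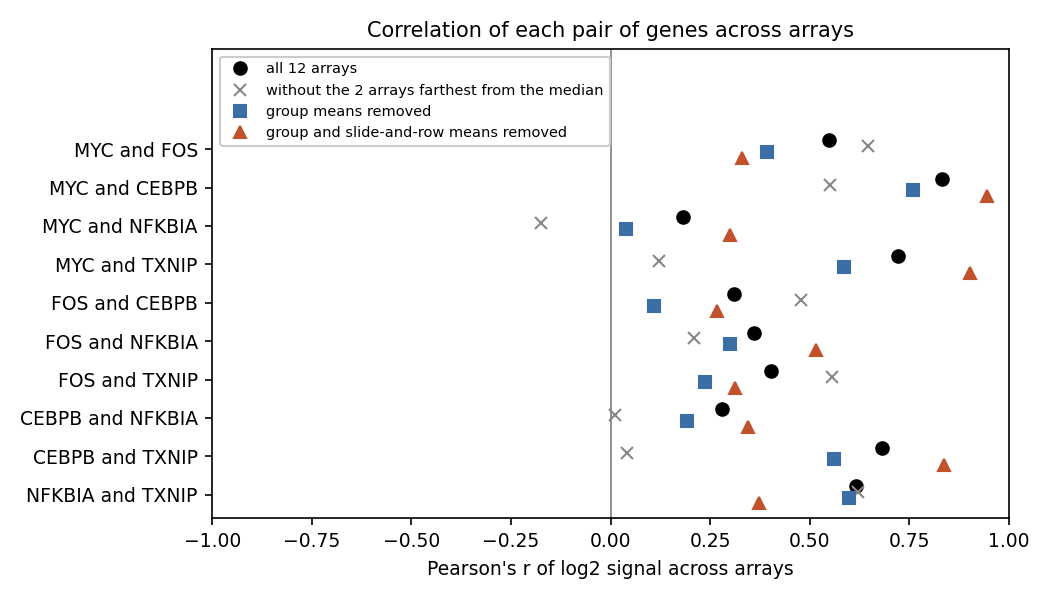
Pearson's r of log2 signal across arrays (x axis) for the 10 pairs of genes: over all 12 arrays, without the 2 arrays farthest from the median of the first gene, with group means removed, and with group and slide-and-row means removed. MYC with CEBPB is highest over all 12 arrays (r = 0.83), and MYC with TXNIP and CEBPB with TXNIP drop to 0.12 and 0.04 without cortisol arrays 3 and 5.

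Among named genes outside the 5, those whose signal followed each gene most closely over the 12 arrays were taken by Pearson's r, as a description of arrays that share scaling and slides. MYC was most like SLAN (r = 0.91), CSNK1E, a casein kinase (0.90), and PABPC1, which binds poly(A) tails (0.88), and also like the mitochondrial carrier SLC25A33 (0.86). CEBPB was most like ICAM1, an adhesion molecule of inflamed endothelium (0.89), and FBXO32, the muscle ubiquitin ligase atrogin-1 (0.85), then FABP5 (0.85), SLC25A33 (0.85) and the metallothionein MT3 (0.81). TXNIP was most like the fatty acid carrier FABP5 (0.91), TAC1 (0.88) and CDKN1B, an inhibitor of the cell cycle (0.88), then IGFR1 (0.85) and RPS12 (0.84). NFKBIA was most like TLR3, a receptor for double-stranded RNA (0.86), and CENP-C (0.83), then TIMP3 (0.82), MHCII-DRB1 (0.74) and SLC9A3R1 (0.72). FOS had the weakest likeness, with FLAP at 0.71, ITM2B and the lysosomal protease CTSD at 0.66 each, and BAX at 0.62. With group means removed, r of these pairs lay between 0.54 for FOS with BAX and 0.94 for MYC with CSNK1E. Several were lower with another background correction: with normexp, r of NFKBIA was 0.026 with TLR3, 0.47 with CENP-C, 0.49 with MHCII-DRB1 and 0.33 with SLC9A3R1. It was likewise 0.50 for CEBPB with ICAM1, 0.66 for TXNIP with CDKN1B, 0.47 for FOS with FLAP and 0.21 for FOS with BAX. TXNIP with RPS12 had r of 0.72 with quantile normalization and 0.66 in the deposited log2 values. NFKBIA with SLC9A3R1 had r of 0.54 in the deposited log2 values.

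No other measured gene of these pathways passed the test at an adjusted p of 0.05. Of 8 other immediate early and early stress genes, 5 had a higher and 3 a lower mean, and 0 had an unadjusted p under 0.05 by limma. Among them the matrix protein gene CCN1 differed by 0.52 and the zinc finger factor EGR1 by -0.21. Of the partners of FOS in AP-1, JUNB differed by 0.23, JUND by 0.27 and JUN by -0.14. Of 4 measured genes of the MYC network and its targets, 2 were higher and 2 lower, with ODC1, the first enzyme of polyamine synthesis, at 0.37 (0.094 without cortisol array 2, 0.12 without control 4), CDK4 at -0.10 and CCND2 at 0.05.

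Among the partners of CEBPB, PPARG, the fat-cell nuclear receptor, differed by 0.38, the stress factor DDIT3 by -0.25 and ATF4 by 0.07. The kinase IKBKB, which marks NFKBIA protein for breakdown, differed by -0.16, or by 0.034 in the deposited log2 values. Of 6 NF-kappaB target genes, 4 were higher and 2 lower, with 0 at an unadjusted p under 0.05: the chemokine CXCL8 differed by 0.55 (0.079 without cortisol array 3), ICAM1 by 0.34 (-0.023 with normexp) and IL1B by -0.12. Another 3 of these targets, TNF, IL1A and IL10, were well above background on no array. Beside TXNIP, thioredoxin itself (TXN) differed by -0.01 (0.012 with median scaling and 0.015 with quantile normalization), the glucose transporter SLC2A1 by 0.09, and SLC2A4, the insulin-responsive glucose transporter, by -0.75 (limma unadjusted p 0.0177).

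Of 39 genes listed as glucocorticoid-responsive, 8 were measured, 3 of them being CEBPB, NFKBIA and TXNIP. Of the other 5, 4 had a higher and 1 a lower mean, and none passed. FBXO32 ran from -1.60 to 0.56 with a median of -0.42 in controls and from -0.91 to 2.82 with a median of 1.39 in the cortisol group. It had 3 cortisol arrays above every control and differed by 1.53 (95% interval 0.01 to 3.05, SE 0.71; limma unadjusted p 0.0485). HSD11B1, which regenerates cortisol inside cells, differed by 0.47 (0.20 without cortisol array 3) and the growth inhibitor MSTN by 0.83 (0.13 without control 3). PCK1 of gluconeogenesis differed by 0.07 (-0.035 with normexp) and IGFBP5, an IGF binding protein, by -0.64 (-0.34 without cortisol array 3). PER1 and IGFBP1 were on the array without enough signal above background. The glucocorticoid receptor gene NR3C1 differed by 0.10 and HSD11B2, which inactivates cortisol, by -0.19.

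Of 8 measured genes of heat shock or stress of the endoplasmic reticulum, 2 had a higher and 6 a lower mean, with 0 at an unadjusted p under 0.05: HSPA5 differed by 0.28, HSPA1A by -0.23 and PDIA4 by -0.11. Of 10 glucose and hypoxia genes, 4 were higher and 6 lower. The oxygen store myoglobin (MB) differed by -1.46 (limma unadjusted p 0.00883) and the glycolytic enzyme PFKL by -0.32.

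White blood cells also express FOS, NFKBIA and CEBPB, so their markers are given here. Of 22 leukocyte markers 8 were on the array by name and 3 were measured. All 3 had a higher mean with cortisol: FCER1G by 0.59 (limma unadjusted p 0.00425), ITGB2 by 0.62 (unadjusted p 0.0184) and CD14 by 0.27. Among all tested probes, 46% had a higher mean, and 2.14% were higher at an unadjusted p under 0.05 by limma. The summed signal of the 3 markers, in multiples of the array's 75th percentile, was 0.398 to 0.581 in controls and 0.514 to 0.863 in the cortisol group. Levels of different probes are not comparable, and FCER1G, the brightest of the 3, weighs most in this sum. ITGAM and CD4 were well above background on no array. The part of leukocytes in the values of the 5 genes was not tested, and in whole muscle a different number of cells cannot be told apart from a different amount of RNA per cell. Of 6 measured adipocyte markers, 3 were higher and 3 lower, with the lipid droplet gene PLIN2 at 1.04 (limma unadjusted p 0.00514).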

How the data were processed

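Spot intensity was deposited by the authors as Agilent Feature Extraction 10.1.1.1 output, per the file headers: processed signal is background-subtracted and detrended within an array and not scaled between arrays. The other values used are flags per spot (well above background, saturated, outlier), as deposited per the file headers. A series table of deposited log2 values has the same order within each array as median signal minus background, with near-equal quartiles; the tool that made it is not stated in the labels or files used, and it served as an alternative.

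Outlier spots were left out, spots of a probe averaged, and each array's 75th percentile, over probes that are no controls, subtracted from log2 signal, so signal near background is less precise. Tested were the 10730 of 15008 probes with signal well above background on 6 or more of the 12 arrays, with limma 3.58.1 in R 4.3.3 (lmFit, eBayes, two-sided), all 12 arrays and no covariate, Benjamini-Hochberg threshold 0.05. A gene is represented by its tested probe of highest mean signal. Gene names came from the array or from RefSeq by accession, for 1584 probes; 35 were matched by hand. Correlations used 100000 permutations, or all 720 pairings within a group (SciPy 1.17.1). The fit was tested on simulated data.

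Named genes were every probe of the 5 genes, the 5 most alike named genes of each (some are not reported here), up to 3 of smallest unadjusted p per pathway list, and measured glucocorticoid-responsive genes; PLIN2 was chosen after its values were seen. The members and lists were chosen with earlier results of these data known. The labels number the arrays of a group without naming animals, so p-values measure the spread between these arrays, whose number limits precision. Alternatives changed the background correction, scaling, filter, blocks, weights and arrays included.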

Additional observations from a re-analysis of the deposited data

Results flagged for a closer look

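In 6 of 84 groups of 6 arrays, 1 array stood apart from the others by a gap past Dixon's 95% limit for its share of the group's range; chance gives about 1 in 20 groups. FOS probe A_70_P001561 was at -2.395 on cortisol array 6, the next at -3.543. On cortisol array 3, CXCL8 was at -1.149 against -3.567 for the next, and HSD11B1 at 1.995 against 0.6375. JUND was at 0.006326 on cortisol array 5, the next at -0.6215. Control array 3 was low for MSTN (-5.171, the next -1.407) and for PPARG (-0.3155, the next 0.2245). That MSTN value lay below -4.97, the lowest signal well above background on the array, so it is near background.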

How the results depend on the processing

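MYC, FOS, CEBPB and TXNIP kept a positive difference under every alternative run. With the replicate block, no probe passed (MYC limma adjusted p 0.633). The 5 differences could not change there (MYC 1.01), since each block holds 1 array of either group. Unadjusted limma p values did change with this block. For FOS they fell from 0.111 to 0.0523 (brightest probe), 0.0641 to 0.00564 (A_70_P001561), 0.0887 to 0.0151 (A_70_P016316) and 0.0838 to 0.0296 (A_70_P016317). For MYC the unadjusted limma p rose from 0.00618 to 0.00992. Whether same-numbered arrays are pairs was not settled, since they also share a slide-and-row set and the 2 cannot be told apart. Correlations of their deviations ran from -0.11 to 0.25. Of the 12 arrays, 6 were closest to their own number among the 6 arrays of the other group. The number of probes past the adjusted threshold was 0, except 1 in slide-and-row set 1 alone. Probes at an unadjusted p under 0.05 numbered 230 higher and 502 lower, against 119 and 179 in set 2 alone and 571 higher in set 3 alone; leaving out 1 array gave 142 to 415 higher and 351 to 666 lower. CEBPB, at 0.89, missed 0.05 in the exact permutation test (p = 0.0844). Its unadjusted limma p was 0.0645 with normexp, 0.157 with array weights and 0.0623 to 0.103 without control 4, 5 or 6 or cortisol 1, 3 or 5. That of TXNIP, 0.0516 here, was under 0.05 in several settings, among them 0.0311 in the deposited values and 0.0324 with normexp. The 3 correlated pairs were 4 with quantile normalization or median scaling, 1 with the deposited values, 1 by Spearman's rho, 0 with group means removed, and 0 to 3 with 1 array left out (0 without cortisol array 3 or 5; 1 without control 5, control 6, cortisol 1 or cortisol 6). The causes were not tested.

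Differences that turned sign were these. In set 1 alone: NFKBIA -0.38, ATF4 -0.38, CDK4 0.19, HSD11B2 0.19, ICAM1 -0.12, MSTN -1.09, NR3C1 -0.17, PCK1 -0.074, SLC2A1 -0.24, TXN 0.56. In set 2 alone: CCN1 -0.055, HSD11B2 0.25, HSPA5 -0.075, IL1B 0.050, JUN 0.047, PCK1 -0.10. In set 3 alone: ATF4 -0.039, CCND2 -0.22, DDIT3 0.22, EGR1 0.30, HSPA1A 0.29, HSPA5 -0.56, IL1B 0.064, JUN 0.0625, ODC1 -0.56, PFKL 0.30. With normexp: ICAM1 -0.023, PCK1 -0.035, TXN 0.030. TXN was 0.015 with quantile normalization, 0.012 with median scaling and 0.029 in the deposited values, where IKBKB was 0.034. With array weights: ATF4 -0.0077, SLC2A1 -0.0061, TXN 0.0026. Spearman's rho for MYC with NFKBIA was -0.035. With 1 array left out, ATF4 ran from -0.065 to 0.27, CCND2 from -0.028 to 0.14, CDK4 from -0.23 to 0.030, HSD11B2 from -0.35 to 0.0053, HSPA5 from -0.041 to 0.47, PCK1 from -0.077 to 0.22, SLC2A1 from -0.23 to 0.28 and TXN from -0.12 to 0.085. Signal near background limits the dim FOS probes, IKBKB, ICAM1, CXCL8, IL1B, DDIT3, MYF5, FABP4 and the MSTN value of control array 3.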
